A study of Mus musculus with 8 samples.

Results

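The genes described here encode the enzymes that take apart collagen and bone matrix and the inhibitors that hold these enzymes in check. They are the metalloproteinases Mmp2, Mmp9, Mmp13 and Mmp14, the bone resorption enzymes Ctsk and Acp5, and the inhibitors Timp1, Timp2, Timp3 and Timp4. These 10 genes, of 18194 with a probe set (the group of short probes that reads a transcript), were chosen by their roles and with their intensities over all 8 arrays already known. Every probe set that names 1 of them alone was read, 23 in all of 45101 on the array. Because the same arrays served the choice, the differences of these 10 genes are given as a description, with no p-value. Counts of these genes past the adjusted p limit, in the fit of all 8 arrays, stand beside the share of all genes. Counts at an unadjusted limit have no such share, and nothing is read from any of these counts. All 10 passed the filter on low levels, which kept 13587 genes.

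Tissue labelled as posterior palate came from BALB/c pups on postnatal day 1. Their dams carried an osmotic minipump under the skin, filled with saline or with nicotine for a release of 1.5, 3.0 or 4.5 mg/kg/day. There are 2 arrays, called biological replicates, in each of the 4 groups, and the saline group is the control of every comparison. The strain, the age and the pump surgery are shared by all groups. The sources used here do not say whether an array holds RNA of 1 pup or of a pool, nor whether the arrays of a group come from separate litters. Errors therefore measure only the spread between these arrays.

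Matrix metalloproteinases are zinc enzymes made as inactive precursors and secreted or held at the cell surface. Tissue inhibitors of metalloproteinases bind their active site, and the balance of both sets how fast matrix is turned over. In growing bone, osteoclasts dissolve mineral with acid and digest the exposed collagen with cathepsin K. Cells at the cartilage to bone boundary cut collagen with collagenase 3. The palate holds mucosa, muscle and growing bone, so that several cell types can be sources of these transcripts. In whole tissue, fewer cells of a type and less RNA per cell cannot be told apart.

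Promoters were found in the RefSeq table for 8 of the 10 genes. Those of a collagenase (Mmp13), a cathepsin (Ctsk) and an inhibitor (Timp1) are shown, picked after their values were seen among the genes lowest in saline replicate 2. Timp2 and Timp4 were lowest in that array too. Each sequence is the 250 bases before the annotated start of transcription, read 5′ to 3′ on the strand of the gene in build GRCm38.p6. Capitals mark matches to the AP-1 motif (TGANTCA) and to the TATA box (TATAAA), searched on both strands.
Mmp13 (chr9:7272264-7272513, plus strand): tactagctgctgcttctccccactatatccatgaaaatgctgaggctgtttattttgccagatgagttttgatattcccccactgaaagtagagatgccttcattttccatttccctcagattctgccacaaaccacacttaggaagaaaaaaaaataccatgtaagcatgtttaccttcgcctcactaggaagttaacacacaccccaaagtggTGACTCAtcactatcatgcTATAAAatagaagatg
Ctsk (chr3:95498960-95499209, plus strand): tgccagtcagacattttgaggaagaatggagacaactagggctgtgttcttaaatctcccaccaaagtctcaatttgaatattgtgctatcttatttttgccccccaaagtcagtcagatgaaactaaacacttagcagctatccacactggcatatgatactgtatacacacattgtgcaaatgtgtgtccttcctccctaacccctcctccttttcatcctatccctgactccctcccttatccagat
Timp1 (chrX:20869916-20870165, plus strand): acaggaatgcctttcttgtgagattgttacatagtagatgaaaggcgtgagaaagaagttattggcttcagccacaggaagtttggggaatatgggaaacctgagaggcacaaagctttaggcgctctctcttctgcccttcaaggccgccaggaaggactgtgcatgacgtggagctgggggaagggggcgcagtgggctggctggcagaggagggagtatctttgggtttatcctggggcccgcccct

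AP-1 is the Fos and Jun dimer, a known regulator of collagenase genes. Its motif matched in Mmp13 at bases -35 to -29 from the start, ahead of a TATA box at -16 to -11. No window of the other 7 genes matched either motif. Over 32851 promoter windows of the same length, 6.75% held the AP-1 motif and 12.4% the TATA box. The motif of RUNX, a factor of bone and cartilage (TGTGGT, both strands), matched in Mmp13 and Mmp14 and in 14.0% of all windows. The core motif of NFAT, the factor that drives osteoclast formation (GGAAA, both strands), matched in Mmp13, Mmp14, Acp5 and Timp1 and in 55.6% of all windows. No match of any motif in these genes overlapped another. A match is a description of the letters, and its absence says only that they are not in this window.

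The saline arrays and some nicotine arrays stood apart in genes of other organs. Median intensities lay between 20.7 and 25.4. Stomach genes (11) had median log2 levels of 7.86 and 8.04 in the saline arrays and of 4.61 to 4.83 in the nicotine arrays. Liver genes (11) had medians of 10.55 and 11.78 in saline and 10.01 in nicotine 1.5 replicate 2, against at most 5.17 elsewhere. The 11 intestine genes had medians of 10.04 and 8.31 in saline and at most 5.48 in nicotine, and the 11 lung genes 4.49 and 4.77 in saline and 4.67 to 9.38 in nicotine. For the labelled tissue, the median of 15 patterning genes of face and jaw was 4.94 to 5.38, near the filter level of 4.94, and that of 10 palate genes was 6.29 and 5.71 in saline and 6.44 to 7.51 in nicotine. Of 7 palate genes tested 3 rose with the mean of doses, Jag2, Meox2 and Tgfb3 (adjusted p from 0.0264 to 0.0345). Over all genes 4.75% were called higher, and these 3 calls were not tried with single arrays left out. Probe sets at the 3′ and 5′ ends of actin, whose ratio grows as RNA degrades, had ratios of 1.74 and 1.65 in saline and 0.95 to 1.39 in nicotine. Any difference from saline below cannot be told apart from these differences between the groups.

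Cathepsin K and tartrate-resistant acid phosphatase are the textbook enzymes of the osteoclast, and their values differed in pattern over the arrays. Ctsk, the collagen-digesting protease of osteoclasts, had intensities of 152 and 61.0 in the saline arrays, 514 and 303 at nicotine 1.5, 288 and 433 at 3.0, and 419.5 and 212 at 4.5. The lowest nicotine array lay above the higher saline array, so the groups did not overlap. On the log2(intensity + 16) scale, which shrinks the differences of genes near background, Ctsk stood 2.01 ± 0.49 above saline at 1.5 mg/kg/day (SE of the fit), 1.75 ± 0.49 at 3.0 and 1.59 ± 0.49 at 4.5. The mean of the 3 doses lay 1.78 ± 0.40 higher, a 3.44-fold difference. It was 1.24 without saline replicate 2 and 2.33 without saline replicate 1.

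Acp5, the acid phosphatase that is stained to count osteoclasts, had intensities of 150.3 and 190.1 in saline, 190.5 and 212 at 1.5, 174 and 287 at 3.0, and 278 and 62.8 at 4.5. Both the highest and the lowest array were nicotine arrays, and the groups overlapped. Its mean difference over the doses was 0.21 ± 0.46, smaller than its standard error. At 4.5 mg/kg/day it was -0.15 ± 0.56, and it became 0.77 without replicate 2 of that dose and -1.06 without replicate 1. Nicotine 4.5 replicate 2 was the lowest of the 6 nicotine arrays for Acp5, Ctsk and Mmp9 alike.

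Among the metalloproteinases, those known as gelatinases and the collagenase were higher in every nicotine array, and the membrane enzyme was not. Mmp9, the gelatinase of osteoclasts and neutrophils, had intensities of 95.6 and 54.4 in saline, 367 and 271 at 1.5, 189 and 310.2 at 3.0, and 266 and 144 at 4.5. Its difference from saline was 2.04 ± 0.38 at 1.5, 1.63 ± 0.38 at 3.0 and 1.41 ± 0.38 at 4.5. The differences went down in the order of the doses, but the arrays of neighbouring doses overlapped. A second probe set of Mmp9 gave 27.7 and 21.8 in saline and 36.3 to 149 in the nicotine arrays, and a mean difference of 1.42 ± 0.29 beside 1.69 ± 0.31 for the first.

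Mmp13, collagenase 3 of hypertrophic cartilage and bone-forming cells, had intensities of 124 and 20.8 in saline, 381 and 275 at 1.5, 208 and 268 at 3.0, and 387 and 395 at 4.5. All 6 nicotine arrays lay above both saline arrays. On the log2 scale the saline arrays had an SD of 1.27, against at most 0.43 within a nicotine dose. Mmp13 had the largest mean difference of the 10 genes, 2.27 ± 0.44 or 4.81-fold. The value rested in part on saline replicate 2, since it was 1.36 without that array and 3.17 without saline replicate 1. Its differences by dose were 2.35 ± 0.54, 1.86 ± 0.54 and 2.59 ± 0.54.

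Mmp2, the gelatinase made by fibroblasts and other mesenchymal cells, had intensities of 462 and 480 in saline. It reached 1215 and 899.8 at 1.5, 838 and 612 at 3.0, and 758 and 859 at 4.5. The saline arrays were closely alike for this gene, with a log2 SD of 0.0016 against 0.20 to 0.44 in the nicotine groups. Its mean difference was 0.91 ± 0.21, with 1.32 ± 0.26 at 1.5, 0.59 ± 0.26 at 3.0 and 0.82 ± 0.26 at 4.5. Its second probe set gave 0.97 ± 0.21.

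Mmp14, the membrane-bound enzyme that activates the Mmp2 precursor, had intensities of 829 and 730.3 in saline, 968 and 759.7 at 1.5, 809 and 633 at 3.0, and 586 and 617 at 4.5. The nicotine arrays lay on both sides of the saline arrays, and both arrays of the highest dose were below them. Its mean difference was -0.05 ± 0.20. The other 2 probe sets of Mmp14, both dimmer, gave 0.56 ± 0.30 and 0.34 ± 0.15, so the probe sets disagreed in direction, and the mean of the 3 probe sets gave 0.28.

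**Figure D1:**
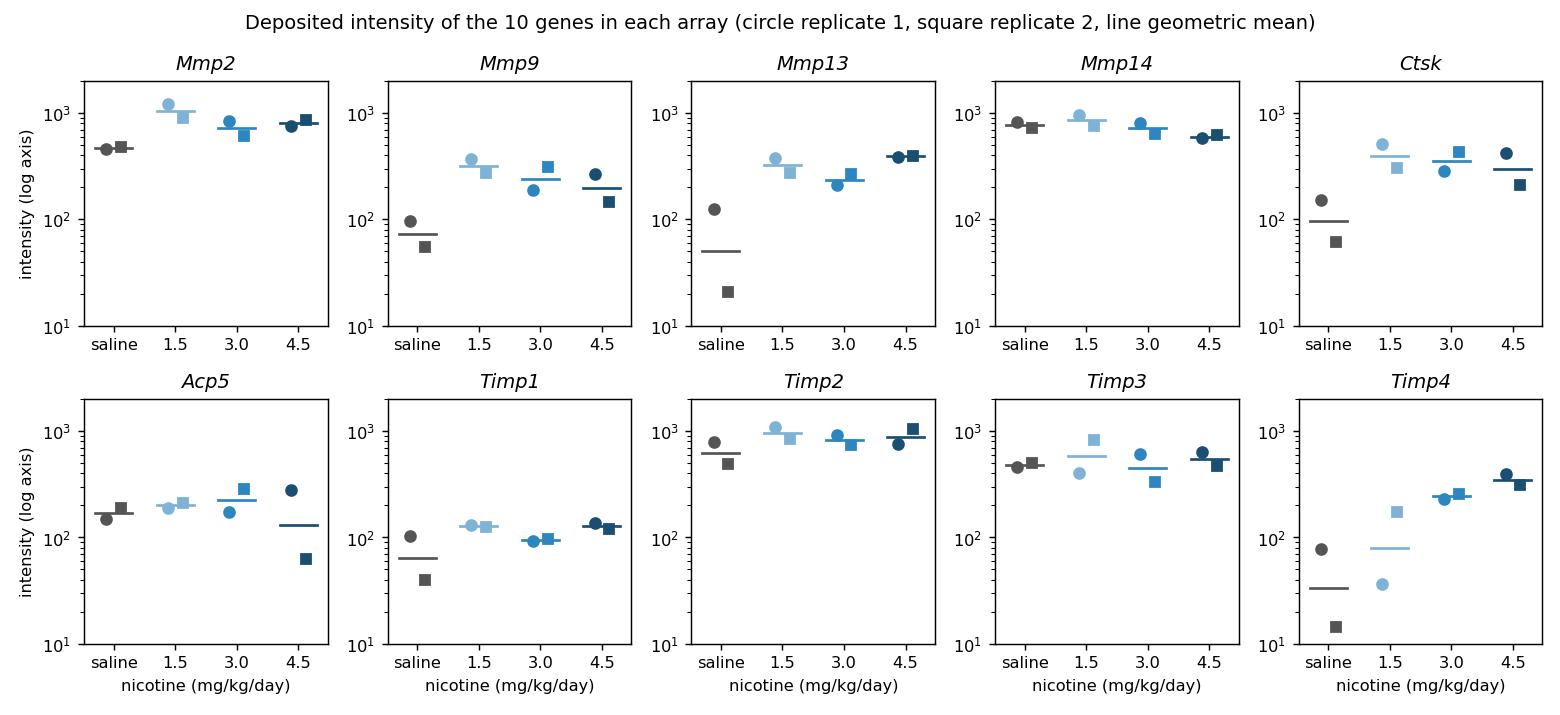
Deposited intensity (log axis, same range in every panel) of each of the 10 genes against nicotine dose; circles are replicate 1, squares replicate 2 and lines the geometric mean of a group. Mmp2, Mmp9, Mmp13 and Ctsk have all 6 nicotine arrays above both saline arrays, while Mmp14, Acp5, Timp1, Timp2, Timp3 and Timp4 overlap with saline.

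Of the inhibitors, Timp4 differed most from saline and Timp3 least. Timp1, a secreted inhibitor that responds to growth factors and cytokines, had intensities of 103 and 39.7 in saline, 131 and 124 at 1.5, 92.8 and 97.2 at 3.0, and 137 and 120.4 at 4.5. After quantile normalization its nicotine arrays all lay above saline, but in the deposited intensities both arrays at 3.0 fell between the saline arrays. Its mean difference was 0.81 ± 0.26, and 0.32 without saline replicate 2. Timp1 and Mmp13 had saline replicate 2 as their lowest array, as did Ctsk, Mmp9, Timp2 and Timp4.

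Timp2, the inhibitor that takes part in the activation of the Mmp2 precursor by Mmp14, had intensities of 791 and 495 in saline, 1089.8 and 838 at 1.5, 929.5 and 742 at 3.0, and 759 and 1039 at 4.5. The groups overlapped, and the mean difference of 0.57 ± 0.28 became 0.20 without saline replicate 2 and 0.94 without saline replicate 1. Of its 6 probe sets, 5 passed the level filter. In these the mean difference ran from -0.09 ± 0.26 to 0.72 ± 0.22, positive in 4 and negative in 1. The sixth, with intensities of at most 9.27, was not above the filter.

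Timp3, the inhibitor that stays bound to the matrix, had intensities of 457 and 504 in saline, 405 and 828 at 1.5, 615 and 334 at 3.0, and 632 and 467 at 4.5. The highest and the lowest array were both nicotine arrays. Its mean difference was 0.21 ± 0.30, and its 4 probe sets gave 0.03 to 0.27.

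Timp4, an inhibitor expressed in heart, muscle and fat, had intensities of 78.7 and 14.5 in saline, 36.2 and 175 at 1.5, 233 and 258 at 3.0, and 395 and 311 at 4.5. The nicotine 1.5 arrays lay on both sides of the higher saline array, whereas all 4 arrays of the higher doses lay above it. Its difference from saline was 0.95 ± 0.65 at 1.5, 2.34 ± 0.65 at 3.0 and 2.87 ± 0.65 at 4.5. The value at 1.5 was 1.86 without replicate 1 of that dose and 0.04 without replicate 2, and it turned to -0.69 without both saline replicate 2 and nicotine 1.5 replicate 2. Its slope of 0.67 ± 0.13 log2 units per mg/kg/day was the steepest of the 10 genes. The group means went up in the order of the doses, and the differences at 3.0 and 4.5 lay less than a standard error apart. The mean difference was 2.05 ± 0.53, and 1.01 without both saline replicate 2 and nicotine 1.5 replicate 2. A dimmer second probe set gave 1.01 ± 0.22.

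Over the 10 genes, the median difference for the mean of the doses was 0.86, beside 0.07 over all 13587 genes. In that fit 4 of the 10 (Mmp2, Mmp9, Mmp13 and Ctsk) were called higher at an adjusted p under 0.05, where 4.75% of all genes were, and 0 were called lower. By dose, 1 gene (Mmp9) was called higher at 1.5 mg/kg/day (0.729% of all genes), 0 at 3.0 (1.35%), and 2 (Mmp13 and Timp4) at 4.5 (2.91%). No gene of the 10 was called for the slope in either direction, where 39 of all genes were called higher (0.287%) and 70 lower. At an unadjusted p under 0.05 there were 5 genes at 1.5, 4 at 3.0, 6 at 4.5, 6 for the mean of the doses and 2 for the slope. The share of all genes at this unadjusted limit was not counted, here or below, so counts at it cannot be compared with all genes. The 3 dose comparisons and their mean share the same saline arrays. As the genes were chosen with these values known, nothing is read from the counts. The count of 4 became 0 when saline replicate 2, either array of nicotine 3.0 or nicotine 4.5 replicate 1 was left out, 1 (Mmp9) without nicotine 4.5 replicate 2, and 1 (Mmp13) with array weights. The calls of Mmp2, Mmp9 and Ctsk were also lost without both saline replicate 2 and nicotine 1.5 replicate 2. These 2 arrays had the highest summed intensity of liver genes, 38626 and 20422. Saline replicate 1, with 19685 and a higher median than nicotine 1.5 replicate 2 (10.55 against 10.01), stayed in. The difference of Mmp2, Mmp9, Mmp13, Ctsk, Timp1, Timp2, Timp3 and Timp4 from saline kept its positive sign in all 19 alternatives for the mean of the doses, and the sign held in 18 for Acp5 and in 16 for Mmp14. At each single dose the count of the 10 genes called rose without saline replicate 1, and so did the number of all genes called. At 1.5 and 4.5 both numbers fell without saline replicate 2 and without any single array of nicotine 3.0 or 4.5. At 1.5 both also fell without nicotine 1.5 replicate 1.

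In 5 of the 10 genes (Mmp2, Mmp9, Mmp13, Ctsk and Timp1) all 6 nicotine arrays lay above both saline arrays after normalization, as in 16.8% of all genes tested. With the values as deposited these were 4, without Timp1, beside 11.1% of all genes. With arrays centred on their medians they were 6, with Timp2 added, beside 14.7% of all genes.

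**Figure D2:**
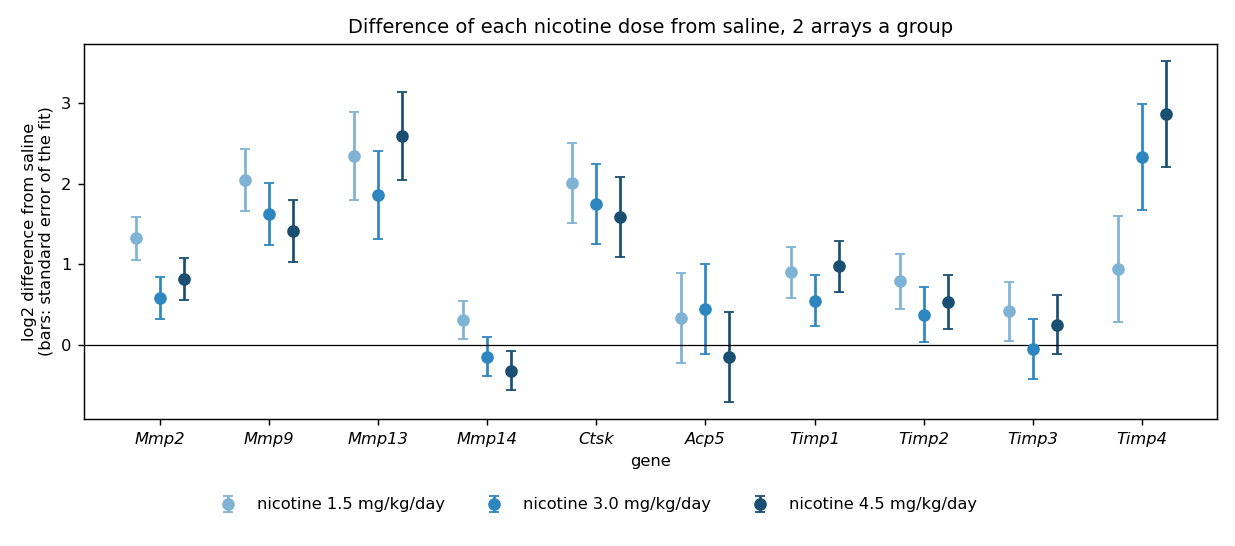
Log2 difference from saline (vertical axis) of each gene at nicotine 1.5, 3.0 and 4.5 mg/kg/day; points are fitted differences of 2 arrays against 2 and bars standard errors of the fit. Mmp9 and Ctsk are highest at 1.5, Timp4 goes from 0.95 at 1.5 to 2.87 at 4.5, and the points of Mmp14, Acp5 and Timp3 lie between -0.32 and 0.45.

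The list of other osteoclast genes also holds signals that act on osteoclast formation, such as Csf1 and Tnfrsf11b. In it 24 genes had a probe set and 21 were tested for the mean of the doses. Of these 2 rose and 1 fell, where 10.2% of all genes were called in either direction, and the median difference was 0.16. Csf1, the growth factor that osteoclast precursors need, rose by 0.73 ± 0.15 (adjusted p = 0.0331), from 61.1 and 46.5 in saline to 76.1 to 119 in the nicotine arrays. Plekhm1, which directs lysosomes to the resorbing surface, rose by 0.57 ± 0.13 (adjusted p = 0.0410). Tnfrsf11b, the decoy receptor osteoprotegerin that blocks osteoclast formation, fell by 0.74 ± 0.16 (adjusted p = 0.0383), from 43.3 and 36.3 in saline to 6.59 to 24.4. Nfatc1, the factor that drives osteoclast formation, stood at 0.76 ± 0.20 (adjusted p = 0.0556) and was called with each probe set as a feature. The calls of Csf1, Plekhm1 and Tnfrsf11b were each lost without either saline array, without either array of nicotine 3.0 or without nicotine 4.5 replicate 1. That of Plekhm1 was also lost without any single other nicotine array, that of Csf1 without nicotine 4.5 replicate 2 and that of Tnfrsf11b without nicotine 1.5 replicate 2. All 3 calls were lost with array weights, with the replicate number as a block and without both saline replicate 2 and nicotine 1.5 replicate 2. Csf1 and Plekhm1 were not called with the values as deposited or with the mean of a gene's probe sets, nor Plekhm1 with median-centred arrays. Csf1 was at 0.46 with an added constant of 64, still called. Tnfrsf11b was at -0.34 with that constant, no longer called, and at -1.24 with a constant of 1, still called.

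Intensities of single osteoclast genes ran from low to high, and no gene of the list was at 0. Calcr, the calcitonin receptor, had intensities of 12.4 and 11.7 in saline and 11.2 to 27.3 in the nicotine arrays. Oscar, an osteoclast receptor, was at 19.8 and 17.6 against 11.1 to 22.2. Itgb3, the integrin by which osteoclasts hold to bone, was at 51.9 and 52.5 against 29.3 to 53.2. Dcstamp, needed for the fusion of osteoclast precursors, was at 6.39 and 5.19 in saline and at 9.39 to 48.3 in nicotine, with a difference that did not pass. Tcirg1, a subunit of the proton pump, was at 103 and 124 in saline and at 53.6 to 101 in nicotine. Car2, the carbonic anhydrase that supplies protons and is also made by many other cells, was at 1155 and 2026 in saline and at 294 to 911 in nicotine (-1.53 ± 0.43, adjusted p = 0.0655). These 6 were named after their values were seen. Per array, 18 to 21 of the 24 genes exceeded the filter level, and their summed intensity was 3320 and 4174 in saline and 2254 to 3210 in the nicotine arrays. Without Car2 the sum was 2165 and 2148 in saline and 1960 to 2299 in nicotine, so that the groups overlapped.

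Most cathepsins other than Ctsk were lower with nicotine than with saline. Of 12 tested, 5 fell and 0 rose (5.40% of all genes were called lower and 4.75% higher), with a median of -0.97; at an unadjusted p under 0.05, 7 were lower and 1 higher. Ctse, an aspartic protease known from the stomach lining, fell by 2.93 ± 0.48 (adjusted p = 0.0176). Ctso fell by 1.11 ± 0.18 (adjusted p = 0.0170), Ctsz by 0.94 ± 0.19 (adjusted p = 0.0315) and Ctsa, which protects lysosomal enzymes, by 1.09 ± 0.24 (adjusted p = 0.0383). Ctsl, a widely expressed cysteine protease, fell by 1.17 ± 0.26 (adjusted p = 0.0383). Ctsl had intensities of 2397 and 2525 in saline and 867 to 1763 in the nicotine arrays. The stomach list went the same way, with summed intensities of 10805 and 10537 in saline and 187 to 204 in nicotine over 11 genes, of which 10 exceeded the filter level in saline and 4 to 5 in nicotine. Its part in the falls was not tested. With the mean of a gene's probe sets the difference shrank to -1.33 for Ctse, -0.57 for Ctso, -0.50 for Ctsl and -0.36 for Ctsa, none of them called. None of the 5 calls held without either array of nicotine 3.0. Ctsz was at -0.62 without saline replicate 1. Array weights ended the calls of Ctsz, Ctsa and Ctsl, and the replicate block that of Ctsz. Those of Ctse, Ctso and Ctsl were also lost without saline replicate 2, and those of Ctsz, Ctsa and Ctsl without saline replicate 1. Further single arrays that ended a call were nicotine 1.5 replicate 2 and both arrays of nicotine 4.5 for Ctsz and Ctsa, and nicotine 1.5 replicate 1 for Ctsl.

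**Figure D3:**
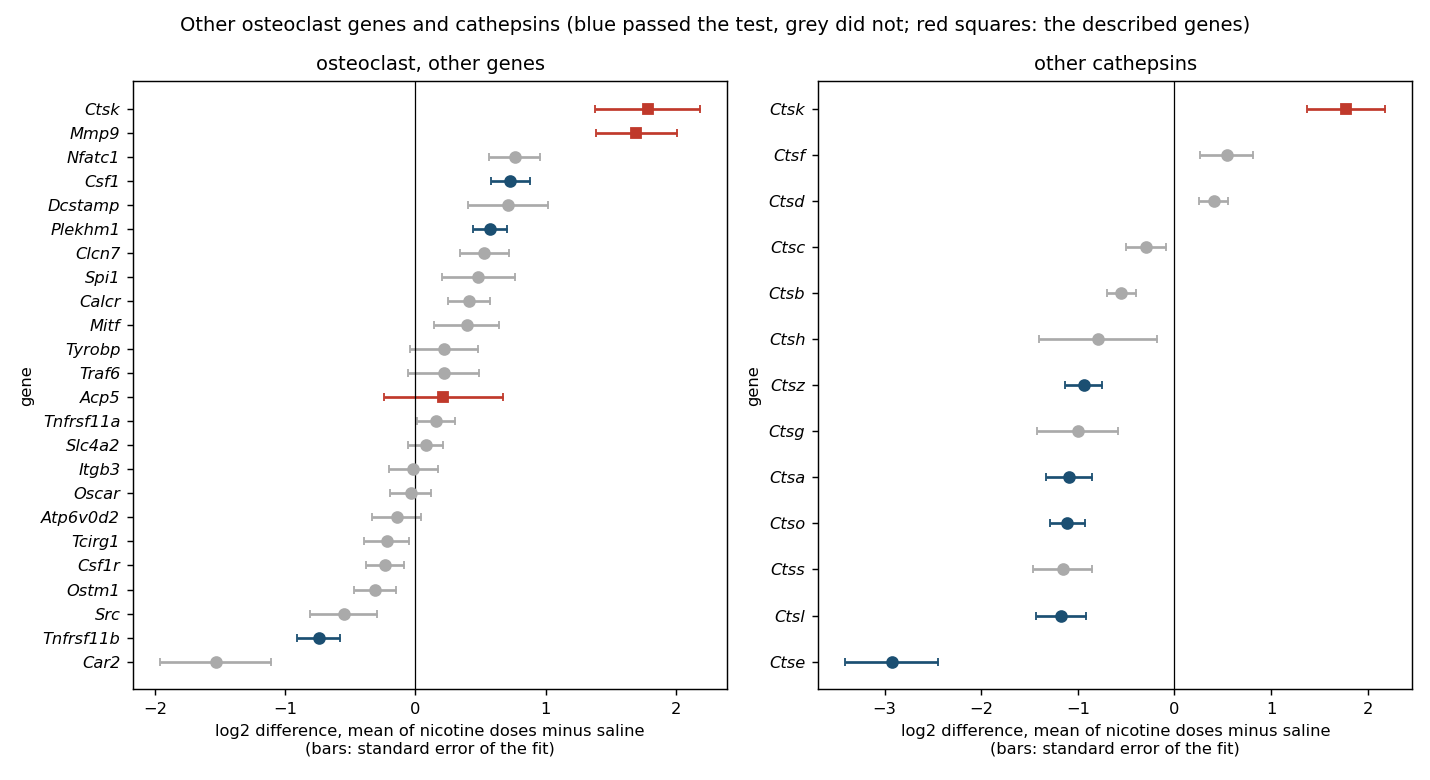
Log2 difference of the mean of nicotine doses from saline (horizontal axis, bars standard errors of the fit) for the other osteoclast genes and the other cathepsins; blue points passed the test, grey points did not, and red squares are Ctsk, Mmp9 and Acp5. Ctsk and Mmp9 lie at 1.78 and 1.69, to the right of all other osteoclast genes, and 10 of the 12 other cathepsins lie left of 0.

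Among related proteases, none of the 7 other metalloproteinases tested passed for the mean of the doses (median 0.22; 2 were higher and 1 lower at an unadjusted p under 0.05). Mmp16, a membrane enzyme, stood at 0.58 ± 0.23, Mmp24 at 0.38 ± 0.15, Mmp17 at -0.45 ± 0.18 and Mmp23 at 0.12 ± 0.15, which turned to -0.018 with the values as deposited (adjusted p from 0.144 to 0.635). Of 21 proteases of the ADAM and ADAMTS families 4 rose and 1 fell (median 0.25), beside the 4.75% and 5.40% of all genes called higher and lower. Adamts12, which cuts cartilage matrix, rose by 1.06 ± 0.23, Adam12, a protease of fusing muscle and bone cells, by 0.89 ± 0.18, Adamts9 by 0.83 ± 0.14 and Adamts10 by 0.79 ± 0.14 (adjusted p from 0.0192 to 0.0383). Adam10, which sheds surface proteins, fell by 0.75 ± 0.17 (adjusted p = 0.0399). These calls were all lost without saline replicate 2 or without either array of nicotine 3.0. Those of Adamts10, Adam12 and Adam10 were lost without saline replicate 1 too. Nicotine 1.5 replicate 2 ended those of Adam12, Adamts12 and Adam10, nicotine 1.5 replicate 1 and nicotine 4.5 replicate 1 those of Adamts12 and Adam10, and nicotine 4.5 replicate 2 that of Adamts12. The mean of a gene's probe sets gave 0.31 for Adamts10, 0.53 for Adamts12 and -0.50 for Adam10, none of them called. Adam12 and Adamts12 were not called with the values as deposited, and with array weights Adamts9 was the 1 of the 5 still called.

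Regulators and substrates of the proteases were read in the same fit. Of 16 other inhibitors and activators 1 rose (median 0.11). It was Cst3, cystatin C, a secreted inhibitor of cathepsins, at 0.75 ± 0.15 (adjusted p = 0.0266), a call lost without saline replicate 2, either array of nicotine 3.0 or nicotine 4.5 replicate 1, and with the values as deposited, array weights or the replicate block. Plau, the urokinase that activates plasminogen, stood at -1.16 ± 0.34 and Pcolce, the enhancer of procollagen processing, at 0.72 ± 0.26 (adjusted p = 0.0760 and 0.118). None of 17 collagens and other matrix proteins passed, although 15 had a positive difference (median 0.54) and 5 were higher at an unadjusted p under 0.05. Col1a1, the main collagen of bone, stood at 0.65 ± 0.18, Col6a1 at 0.98 ± 0.29, elastin (Eln) at 0.94 ± 0.27 and Sparc, a collagen-binding protein of bone, at 0.64 ± 0.20 (adjusted p from 0.0674 to 0.0884). With median-centred arrays Col1a1 and Col6a1 were called, and with the mean of a gene's probe sets Eln was. Over all 6 lists 14 of 94 genes tested were called, 7 in each direction, beside 10.2% of all genes, and 0 without either array of nicotine 3.0, 2 without saline replicate 2 and 8 without nicotine 4.5 replicate 1.

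Markers of cells that can make these enzymes were set beside them in each array. Osteoblast genes (8) had median log2 levels of 5.76 and 4.81 in saline and of 6.19 to 6.86 in the nicotine arrays. Saline replicate 2 was lowest for this list, and for Mmp9, Mmp13, Ctsk, Timp1, Timp2 and Timp4. It was also lowest for the medians of the matrix substrate (10.23), skeletal muscle (10.83), ADAM and ADAMTS (6.16), macrophage (6.29), palate (5.71) and cartilage (5.11) lists. Of the 8 genes 3 exceeded the filter level in that array and 7 in every other, and their summed intensity was 764 and 336 in saline and 637 to 1389 in nicotine. For the mean of the doses Omd, a proteoglycan of bone, rose by 1.49 ± 0.28 (adjusted p = 0.0263) and was the only one of 7 tested to pass. Over all genes 4.75% were called higher. Ifitm5 and Phex, both of bone-forming cells, stood at 0.82 ± 0.24 and 0.65 ± 0.20 (adjusted p = 0.0695 and 0.0807). The part of bone-forming cells in the values of Mmp13, Ctsk and Timp1 was not tested.

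In nicotine 1.5 replicate 1 the median of 12 cartilage genes was 9.18, against 5.11 to 5.89 elsewhere. Their summed intensity was 10522 there, 935 and 673 in saline and at most 712 in the other nicotine arrays. Col10a1, the collagen of hypertrophic cartilage, was at 289.95 in that array and at 3.09 to 16.9 elsewhere. Ctsk, Mmp9, Mmp2, Mmp14 and Timp2 were at their highest in that same array, while Mmp13, at a log2 level of 8.76 there, was at 8.64 and 8.76 in the nicotine 4.5 arrays. Without that array the mean difference from saline was 1.64 ± 0.39 for Ctsk, 1.61 ± 0.32 for Mmp9, 2.18 ± 0.47 for Mmp13 and 0.81 ± 0.18 for Mmp2.

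Neutrophil genes (12), which mark another source of Mmp9, were highest in the array where it was lowest. Their median was 6.18 and 9.29 in saline and 5.47 to 7.18 in the nicotine arrays, highest in saline replicate 2. Their summed intensity was 1712 and 11552 in saline and 1011 to 3166 in nicotine, and 8 to 12 exceeded the filter level. Of 11 tested none passed, and 1 was lower at an unadjusted p under 0.05. The part of neutrophils in the values of Mmp9 was not tested. Macrophage genes (13) had medians of 6.85 and 6.29 in saline and 6.74 to 7.12 in nicotine, with summed intensities of 1987 and 2345 against 1614 to 3150, and none of 11 passed (1 was higher at an unadjusted p under 0.05).

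Timp4 was read beside the fat, heart and muscle lists. Brown fat genes (11) had medians of 6.60 and 6.67 in saline, 7.16 and 8.30 at 1.5, 10.70 and 11.08 at 3.0, and 10.92 and 8.30 at 4.5. Their summed intensity was 6120 and 2463 in saline and 4505 to 24832 in nicotine, with 9 to 11 above the filter level, and 4 of 11 rose. Timp4 and this list were both low in the saline arrays and nicotine 1.5 replicate 1, but in nicotine 4.5 replicate 2 Timp4 was at 311 while the list was at 8.30. Heart genes (12) peaked at 9.25 in nicotine 1.5 replicate 2 and were at most 6.41 elsewhere, and the 12 genes of skeletal muscle were at 11.62 and 10.83 in saline and at 11.73 to 12.07 in nicotine. Of the muscle genes 5 of 12 rose, and of the heart genes 0 of 11, with 4 higher at an unadjusted p under 0.05. As for brown fat, these counts are for the mean of the doses, where 4.75% of all genes were called higher. They were not tried with single arrays left out. Summed intensities in saline and nicotine were 6688 and 3625 against 6995 to 21134 for heart and 34350 and 25244 against 38419 to 49527 for muscle. The parts of these tissues in the values of Timp4 were not tested.

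The genes with profiles most like each of the 10 over the 8 arrays were found by Pearson's r of log2 level, among all genes tested. For Ctsk they were Rmnd5b (r = 0.98), Rab7b (0.97) and Rgma (0.97), and for Mmp9 they were Copz2 (0.98), Rab7b (0.97) and Ncs1 (0.97). Rab7b, a small GTPase of lysosomal traffic, thus stood in the first 3 of both. For Mmp13 they were Srpx (0.99), Ryr3 (0.98) and Abca9 (0.98), and for Timp1 they were Zfp521 (0.98), Ryr3 (0.98) and Bod1l (0.98). For Mmp2 they were Zdhhc8 (0.98), Sppl3 (0.98) and Ccdc92 (0.98). Osr1, a factor of palate and limb mesenchyme, led for Timp2 (0.99), before Fstl1 (0.98) and Phf2 (0.98). For Timp4 they were Stard5 (0.99), Stau2 (0.98) and Vps37a (0.98). For Mmp14 they were Sox4 (0.97), Zfp27 (0.97) and Tbc1d9 (0.97), for Timp3 Shb (0.97), Tox2 (0.97) and Asb15 (0.90), and for Acp5 Lins1 (0.95), Map3k21 (0.93) and Ppdpf (0.91). The values of r are the highest of 13587 genes over 8 arrays that include both saline and nicotine arrays, and they describe these arrays only.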

How the data were processed

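Expression was measured on 8 Affymetrix arrays, 2 for each of 4 groups. Linear intensity per probe set, as the authors deposited it, was the starting point; its summarization and scaling were not given in the sources used here. Values lay between 0.79 and 19254, and array medians between 20.7 and 25.4. Precision is limited by the number of arrays.

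Of 45101 probe sets, 34958 named 1 gene and 932 several. Symbols came from the platform annotation, and from RefSeq for the 34754 probe sets of 1 gene that were matched by Entrez ID. Values were taken as log2(intensity + 16). Array medians then differed by 0.17, and arrays were quantile normalized. The brightest probe set on average stood for a gene, and genes under the 40th percentile (4.94) were left out. A model with a mean per group was fitted to the 8 arrays in limma 3.58.1 in R 4.3.3 (lmFit and eBayes; 4 residual and 6.85 total degrees of freedom), two-sided, with Benjamini-Hochberg adjustment over 13587 genes and a limit of 0.05. The slope was fitted on dose (0, 1.5, 3.0 and 4.5).

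The members, the pathway and marker lists and the tests were chosen with earlier results of these data known. All 10 members are named, with up to 4 genes of the smallest p in each list and the 3 genes most like each member in r. Adam10, Ctsl, Calcr, Oscar, Itgb3, Dcstamp, Tcirg1, Car2, Col10a1 and A2m were named outside this rule, after their values were seen. The fit was also run on simulated data, with noise drawn independently for each gene and array. Such data lack the shared differences between arrays described above, so nothing about the calls is read from them. Alternatives were other scalings, constants, filters, probe set rules, array weights, a replicate block and leaving out arrays.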

Additional observations from a re-analysis of the deposited data

How the results depend on the processing

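The counts of the 10 genes called rested on single arrays, while most directions did not. Leaving out each array in turn gave 0 to 5 genes for the mean of the doses (4 with all arrays), 0 to 4 at 1.5 mg/kg/day (1), 0 to 2 at 3.0 (0), 0 to 3 at 4.5 (2) and 0 to 1 for the slope (0), and 0 to 18 pathway genes (14). Array weights gave 1 gene for the mean of the doses, 0 at 1.5, 0 at 4.5 and 3 pathway genes. At 1.5 the count was also 0 with arrays centred on medians, with values as deposited, with an added constant of 1 or 64 and with no level filter, and 2 with each probe set a feature or the mean of a gene's probe sets. At 4.5 it was 1 with values as deposited or no level filter and 0 with an added constant of 1. For the slope it was 1 (Timp4) with the filter at the 60th percentile or each probe set a feature. Counts also changed without saline replicate 2 and nicotine 1.5 replicate 2, the arrays of highest summed liver intensity. They were lower for the mean of the doses and the pathway genes and higher at 1.5 and 3.0. The mean of a gene's probe sets gave 6 pathway genes. Mmp23 turned from 0.12 to -0.018 with values as deposited. The number of all genes called also changed in these settings. The cause of these changes was not tested.

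With the replicate number as a block, 0 genes were called at 1.5 and 0 at 4.5, 3 for the mean of the doses, and 8 pathway genes. The labels do not say that a number marks a shared litter. Same-numbered arrays correlated above 0.1 in their deviations in 1 of 6 pairs of groups, with r from -0.22 to 0.33. With 2 arrays a group the deviations mirror each other, so these values cannot tell whether equal numbers share a litter or batch. Over all genes 1380 were called for the mean of the doses, and 355 to 1490 when each array was left out; array weights gave 618, the replicate block 849 and each probe set a feature 2603.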

Other observations

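Circulating regulators of proteolysis made by the liver differed between arrays far more than the genes described above. Plg, the plasminogen that plasmin is made from, had intensities of 180.2 and 1835 in saline, 408 in nicotine 1.5 replicate 2 and 3.55 to 13.8 in the other nicotine arrays. A2m, alpha-2-macroglobulin, a plasma inhibitor that traps proteases of all classes and was picked after its values were seen, was at 80.8 and 706 in saline, 340.1 in nicotine 1.5 replicate 2 and 4.83 to 12.1 elsewhere. Neither passed for the mean of the doses (limma adjusted p = 0.0822 and 0.130). The liver list had summed intensities of 19685 and 38626 in saline, 20422 in nicotine 1.5 replicate 2 and at most 249 in the other arrays, and its part in these values was not tested. Ihh, the hedgehog ligand of cartilage and gut, fell by 1.15 ± 0.25 (adjusted p = 0.0365), from 46.0 and 49.2 in saline to 6.06 to 31.7. Array medians lay between 20.7 and 25.4. It was the only gene called of 12 tested in the cartilage list, where 9 differences were positive (median 0.78). Over all genes 5.40% were called lower, and the call of Ihh was not tried with single arrays left out.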
